A study of Homo sapiens with 12 samples.

Results

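The collagen chain genes were taken as every row of the count table whose symbol reads COL, a number, A and a number, with nothing more. This gave 44 of the 25369 gene symbols, and 31 of the 44 had enough reads to be tested. Of the 44 chains, 11 are fibrillar, 6 belong to type IV, the collagen of basement membranes, and 27 belong to other types. The tested numbers are 7, 5 and 19 in the same order.

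Collagens are built from chains that wind around each other as a triple helix, which each chain can form because glycine recurs at regular steps along it. Fibrillar chains make the tensile fibres of connective tissue, type IV chains make the sheet under epithelia and around vessels, and the remaining types decorate fibrils, form finer filaments or span the cell membrane. In breast tumours collagen is the main matrix protein, made largely by stromal fibroblasts and in part by the tumour cells.

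The samples were tumours of MDA-MB-231, an established human line of triple-negative breast cancer cells, grown in the mammary fat pad of mice, so that stroma and vessels came from the host. The combination group received SB202190 with the EZH2 inhibitor EPZ-6438, for which the labels do not repeat the doses. SB202190, which inhibits p38 MAP kinases, was given alone at 1 mg/kg/day to the p38i group, and the EZH2 inhibitor alone at 10 mg/kg/day to the EZH2i group. Control mice were injected with the vehicle alone (DMSO, PEG 300 and Tween 80), and their treatment field reads None. Injections were intraperitoneal, on 5 days of the week, from a tumour volume of 100 mm3, and the labels write the EZH2 inhibitor's code as both EPZ-6428 and EPZ-6438. RNA from 3 tumours per group was sequenced. The labels give neither the mouse strain, the age of the mice nor the length of treatment. That the tumours come from separate mice is read from their numbers and not stated outright, so the p-values measure the spread between these samples.

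Library totals ran from 2208771 to 4467942 counts. The chains together took from 0.151% (95% Wilson interval 0.147 to 0.156) of the counts in p38i 3-3 to 0.352% (0.345 to 0.36) in control 1-1, where the intervals cover counting error only. Of the p38i libraries, column 5 of the table is named by 2 samples and column 6 by none, so neither could be tied to 1 sample, and column 6 was placed in the group by elimination. Controls 1-1 and 1-3 stood apart from the other libraries on component 1 of the 500 most variable genes, with scores of -34.2 and -18.9 against -7.07 to 18.4. Column 6 held 700 CPM (counts scaled to a common library size) of 12 skeletal muscle markers, against 1.26 to 31.2 CPM elsewhere. VIM, a mesenchymal marker of the line, ran from 3774 to 6376 CPM, and the hormone receptors ESR1 and PGR stayed at or below 13.1 and 7.16 CPM. Of the other genes taken to be low in the line, EPCAM ran from 24 to 101 CPM and was highest in control 1-1. ERBB2 ran from 16.6 to 30.5 CPM, and KRT5 reached at most 2.34 CPM. CDH1, the epithelial cadherin that the line is known to lack, reached 28.8 to 55.4 CPM in combination 8-1 and 9-1, p38i 3-3 and controls 1-1 and 1-3, and at most 4.47 CPM in the other 7 libraries.

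Type IV genes lie head to head in pairs, and the sequences around their starts show how close the members of a pair are. The windows below hold 250 bases before and 50 after an annotated start, from RefSeq on GRCh38.p14, which had windows for 32 of the 44 chains. COL18A1 is shown because it was the only chain to pass the test, with both of its annotated starts. COL4A1 with COL4A2, and COL4A5 with COL4A6, are shown as pairs whose starts are close. The members of a pair were not tested against each other, and COL4A6 was too low to test. Whether the members of a pair differ in their response is therefore not shown. Capitals mark the GC box (GGGCGG or its complement CCGCCC) and the CCAAT box (CCAAT or its complement ATTGG).
COL18A1, upstream start (chr21:45404915-45405214, plus strand): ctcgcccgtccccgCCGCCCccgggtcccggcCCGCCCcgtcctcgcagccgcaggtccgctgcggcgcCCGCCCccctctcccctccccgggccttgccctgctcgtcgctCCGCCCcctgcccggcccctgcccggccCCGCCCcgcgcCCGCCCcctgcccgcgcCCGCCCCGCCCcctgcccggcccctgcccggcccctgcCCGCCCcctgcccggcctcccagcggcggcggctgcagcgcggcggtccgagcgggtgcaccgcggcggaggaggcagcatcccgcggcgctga
COL18A1, downstream start (chr21:45455272-45455571, plus strand): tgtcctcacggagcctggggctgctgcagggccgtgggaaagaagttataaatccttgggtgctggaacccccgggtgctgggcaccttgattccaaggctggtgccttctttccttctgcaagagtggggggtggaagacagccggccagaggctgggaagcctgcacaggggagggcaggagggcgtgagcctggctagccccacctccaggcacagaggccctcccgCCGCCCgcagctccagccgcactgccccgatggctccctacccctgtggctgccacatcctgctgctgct
COL4A1 (chr13:110307108-110307407, minus strand): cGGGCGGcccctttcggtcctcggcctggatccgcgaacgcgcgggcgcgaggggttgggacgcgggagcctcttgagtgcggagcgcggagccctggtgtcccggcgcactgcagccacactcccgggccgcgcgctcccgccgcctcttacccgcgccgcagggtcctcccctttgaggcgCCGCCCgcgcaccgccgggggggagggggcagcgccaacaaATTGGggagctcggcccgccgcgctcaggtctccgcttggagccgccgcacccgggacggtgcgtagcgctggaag
COL4A2 (chr13:110307034-110307333, plus strand): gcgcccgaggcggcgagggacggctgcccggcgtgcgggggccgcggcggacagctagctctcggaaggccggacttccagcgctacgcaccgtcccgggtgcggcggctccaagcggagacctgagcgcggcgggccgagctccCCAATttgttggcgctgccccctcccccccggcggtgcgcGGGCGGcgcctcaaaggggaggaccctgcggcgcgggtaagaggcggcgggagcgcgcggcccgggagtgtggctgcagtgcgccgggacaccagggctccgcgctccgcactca
COL4A5 (chrX:108439588-108439887, plus strand): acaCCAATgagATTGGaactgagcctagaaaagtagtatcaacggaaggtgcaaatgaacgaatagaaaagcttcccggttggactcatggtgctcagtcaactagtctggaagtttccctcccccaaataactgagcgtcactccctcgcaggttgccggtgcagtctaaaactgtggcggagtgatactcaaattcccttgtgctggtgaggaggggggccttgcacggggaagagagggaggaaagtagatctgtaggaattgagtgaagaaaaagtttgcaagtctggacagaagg
COL4A6 (chrX:108439409-108439708, minus strand): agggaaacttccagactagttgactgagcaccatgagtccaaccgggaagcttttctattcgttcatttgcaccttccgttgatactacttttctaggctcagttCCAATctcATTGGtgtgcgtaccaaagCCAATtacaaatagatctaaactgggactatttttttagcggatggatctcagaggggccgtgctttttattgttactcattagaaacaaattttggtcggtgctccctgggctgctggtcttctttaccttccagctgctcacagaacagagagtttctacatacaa

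The upstream COL18A1 window held 9 GC boxes and had 86.7% G and C, against 1 GC box and 66.3% in the downstream window. The counts were made per gene, so they do not say which start was used. The starts of COL4A1 and COL4A2 lie 127 bases apart and their windows share 226 bases. The single CCAAT box in each is the same box, read from opposite strands. The starts of COL4A5 and COL4A6 lie 380 bases apart, and these windows hold 2 and 3 CCAAT boxes and no GC box. The 2 boxes of COL4A5 are among the 3 of COL4A6, read from the other strand. A further annotated start of COL4A6, 1416 bases from that of COL4A5 and not printed, has a window with 1 GC box and 0 CCAAT boxes. A GC box was found in 54.5% of the 44 windows of collagen chains and in 45% of all 35116 windows, and a CCAAT box in 31.8% and 34.6%. These matches describe the letters only. The 2 motifs do not overlap each other, but copies of the GC box can.

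With p38 inhibition 1 of the 31 chains tested, COL18A1, fell and none rose, by edgeR's quasi-likelihood test with Benjamini-Hochberg adjustment over all genes at a threshold of 0.05. Of all 12514 genes tested, 1.77% were called in this comparison. The p38i and control libraries did not overlap for 5 chains that were lower, where 12.5% of all genes were, and for 1 that was higher, where 12.3% were (24.8% in either direction). The median log2 fold change of the 31 chains was -0.09, against 0 for all genes. The share of all genes called was computed for the main fit only. The call count depended on single libraries. It was 0 without control 1-3, p38i 3-3 or column 6, 2 without EZH2i 6-1 (COL18A1 and COL9A3), 3 without EZH2i 5-4 (COL18A1, COL4A5 and COL6A2) and 4 without control 2-1 (COL18A1, COL4A5, COL6A1 and COL6A2), all of them lower. It was also 0 without controls 1-1 and 1-3 together.

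With EZH2 inhibition none of the 31 chains passed the edgeR test, where 0.216% of all genes did (0.0879% higher, 0.128% lower). At an unadjusted p under 0.05 there were 8 chains (25.8%, against 14.7% of all genes), limma-voom called 0 and DESeq2 called 3, COL17A1, COL18A1 and COL9A3, all lower. The groups did not overlap for 4 higher and 4 lower chains, where 8.32% and 8.09% of all genes did not (16.4% in either direction). The median log2 fold change was 0.17, against 0.01 for all genes. With the combination none of the 31 chains passed either, where 0.00799% of all genes did. At an unadjusted p under 0.05 there were 10 chains (32.3%, against 16.3% of all genes), limma-voom called 0 and DESeq2 called 1, COL4A1, which was higher. Non-overlapping chains were 4 higher and 4 lower, against 10.7% and 11.2% of all genes (22% in either direction), and the median log2 fold change was 0.16, against 0.01. The 3 comparisons share their control libraries, so they are not independent of each other. The share of all genes that DESeq2 or limma-voom called was not computed.

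**Figure D1:**
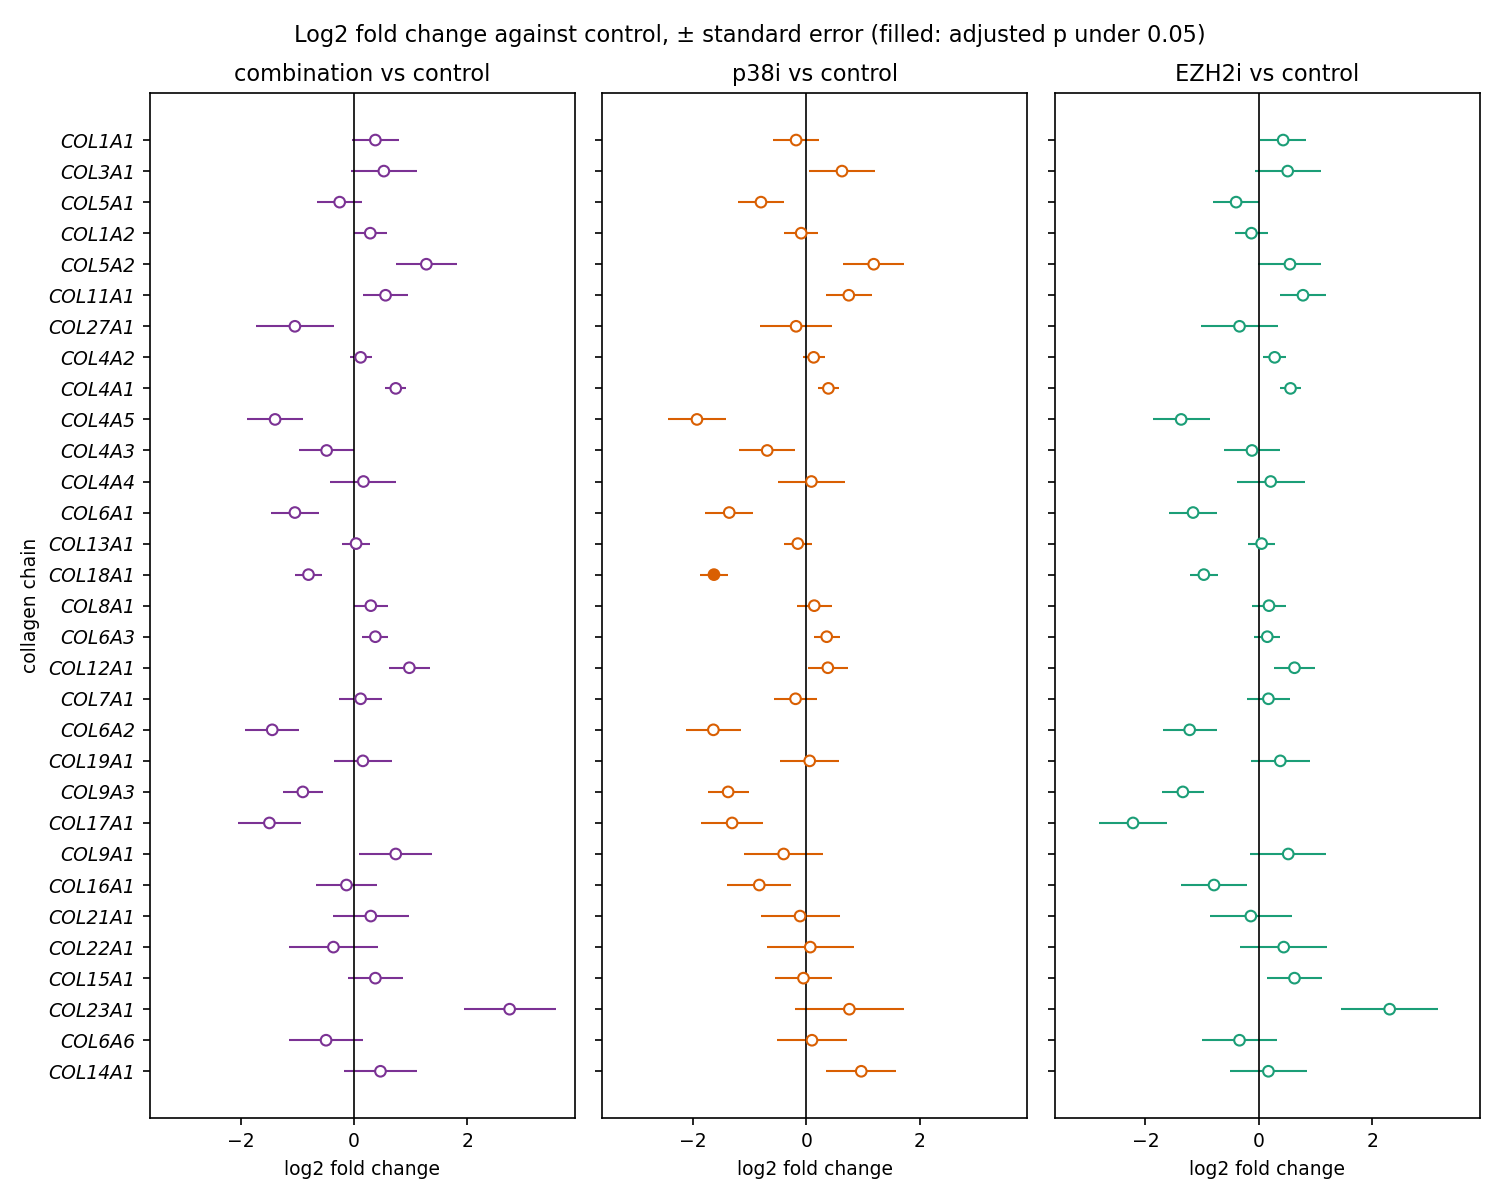
Log2 fold change (x axis) of the 31 collagen chains tested (y axis) against control for the combination, p38i and EZH2i, with bars for the standard error, n = 3 libraries per group. The single filled point is COL18A1 with p38i at -1.63, and COL4A5, COL6A1, COL6A2, COL9A3 and COL17A1 also lie left of 0 in each panel with open points, which mark chains that did not pass the test.

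COL18A1 encodes the chain of collagen XVIII, a basement membrane collagen that carries heparan sulfate and whose end fragment is endostatin, an inhibitor of vessel growth. In library order (combination 8-1, 9-1, 9-2; p38i 3-3, column 5, column 6; EZH2i 5-3, 5-4, 6-1; control 1-1, 1-3, 2-1), it measured 305, 219 and 174 CPM with the combination, 132, 158 and 104 CPM with p38i, and 267, 202 and 152 CPM with EZH2i, against 420, 471 and 324 CPM in control. Every treated library lay below every control, and the p38i libraries were lowest as a group, with column 5 overlapping EZH2i 6-1. It fell 3.09-fold with p38i (log2 fold change -1.63, SE 0.247, edgeR adjusted p = 0.0156). With EZH2i the log2 fold change was -0.97 (SE 0.243, adjusted p = 0.121) and with the combination -0.8 (SE 0.241, adjusted p = 0.197). The call with p38i was lost without control 1-3 (log2 -1.5, adjusted p = 0.0833), p38i 3-3 (-1.63, 0.0617) or column 6 (-1.48, 0.0663), while the direction held with each of the 12 libraries left out. Without both controls that stood apart, it was -1.33 (adjusted p = 0.357). Over all the alternative settings the adjusted p ran from 3.36e-07 with DESeq2 to 0.357.

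The genes that overlap COL18A1 on the other strand had few counts, and how reads in the overlaps were counted is not given in the sources used here. COL18A1-AS1, COL18A1-AS2 and SLC19A1 had at most 2, 1 and 3 counts in a library, against 349 to 1568 counts of COL18A1. In bulk tumours, fewer cells of a type and less RNA per cell cannot be told apart. Of 11 fibroblast markers other than collagens, 6 could be tested, and 1, PDGFRB, fell with p38i (log2 -2.03, edgeR adjusted p = 0.0433, called in 8 of 22 alternatives). The other tested markers did not pass with p38i and went both ways. Log2 fold changes were 1.23 for PDGFRA, 0.76 for FAP and 0.57 for MFAP5, against -1.32 for LUM and -2.01 for POSTN. The summed level of the 11 markers was 39.2 to 57.1 CPM with the combination, 21.8 to 58 CPM with p38i and 27.8 to 51.5 CPM with EZH2i, against 32.7 to 149 CPM in control. In control 1-1, the highest, PDGFRB had 67.4 CPM and POSTN 61.2 CPM. The defining fibroblast genes DCN and THY1 reached at most 1.31 and 2.18 CPM, and no gene of the list was at 0 in all libraries. Of 12 endothelial markers 6 could be tested, and TIE1 rose with p38i (log2 3.36, edgeR adjusted p = 0.0298) at 3.07 to 7.1 CPM, against 0 to 0.711 CPM in control. That call held in 13 of 21 alternatives and was lost without control 1-1, control 1-3, p38i 3-3, column 5 or column 6 (adjusted p from 0.0617 to 0.133), and DESeq2 gave it no adjusted p. The endothelial sum was 195 to 203, 207 to 281, 179 to 349 and 108 to 209 CPM in the same order of groups, most of it ESAM (85.7 to 333 CPM), while CDH5, VWF and CLDN5 stayed at or below 2.1, 0.586 and 0.276 CPM. Stroma and vessels came from the mouse host, while the reads were aligned to the human build hg19. Any removal of mouse reads is not given in the sources used here. How much of these marker sums, or of the collagen counts, came from host cells therefore cannot be told. The part of fibroblasts or endothelial cells in the fall of COL18A1 was not tested.

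COL15A1, the other multiplexin and the nearest relative of COL18A1, measured 3.05 ± 0.901 CPM with the combination, 2.2 ± 0.494 with p38i and 3.64 ± 1.07 with EZH2i, against 2.41 ± 1.1 CPM in control (mean ± SD, n = 3 each). At this level of 5 to 13 counts per library no difference from control was detectable.

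The chains that lay apart from all controls in each treated group were COL18A1, COL4A5 and COL9A3, all lower. These are 3 of 31, where 3.33% of all genes had all 9 treated libraries below the controls. No chain had all 9 above them, where 2.79% of all genes did. COL4A5 encodes a chain of the type IV network found in kidney, lung and smooth muscle basement membranes. It measured 11.7, 7.93 and 5.33 CPM with the combination, 7.5, 7.45 and 2.45 CPM with p38i and 11.4, 2.73 and 12.2 CPM with EZH2i, against 30.4, 18.3 and 17.5 CPM in control. The treated libraries and the controls did not overlap, and control 1-1 stood above the other controls. The log2 fold change was -1.39 with the combination (SE 0.489, edgeR adjusted p = 0.232), -1.93 with p38i (SE 0.51, 0.0731) and -1.37 with EZH2i (SE 0.503, 0.238). COL4A6, its head-to-head partner, had 0 to 2 counts in any library and was too low to test.

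COL9A3 encodes a chain of collagen IX, which sits on the surface of cartilage fibrils. It measured 11.4, 12.8 and 6.28 CPM with the combination, 5.11, 9.11 and 7.58 CPM with p38i and 11.0, 7.95 and 3.49 CPM with EZH2i, against 19.6, 15.6 and 22.3 CPM in control. The highest treated library, combination 9-1, lay below the lowest control. The log2 fold change was -0.9 with the combination (SE 0.351, edgeR adjusted p = 0.249), -1.38 with p38i (SE 0.362, 0.0667) and -1.34 with EZH2i (SE 0.369, 0.128). TCFL5 overlaps COL9A3 on the other strand, and whether counting used strand is not given in the sources used here, so reads of the overlap cannot be told apart. TCFL5 averaged 44.2 ± 8.28, 37.9 ± 7.03 and 34.4 ± 8.26 CPM in combination, p38i and EZH2i tumours, against 37.5 ± 6.07 CPM in control, with a log2 fold change of 0.02 for p38i (adjusted p = 0.98).

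**Figure D2:**
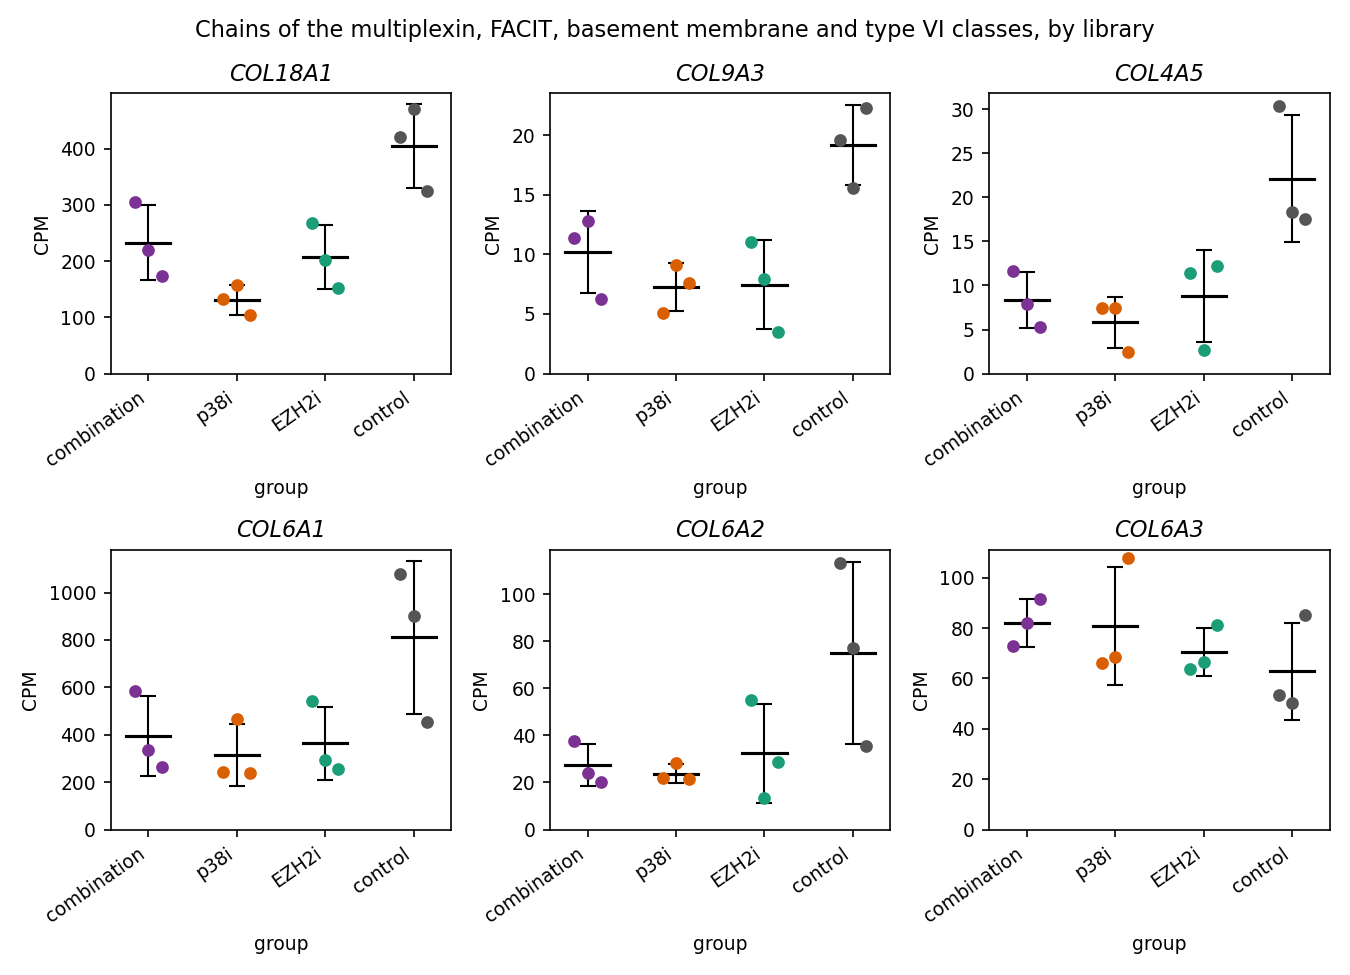
CPM (y axis, from 0) of 6 chains in each library (points) by group, with the mean and SD of 3 libraries (bars). In COL18A1, COL9A3 and COL4A5 all treated libraries lie under the lowest control. COL6A1 and COL6A2 have high values in control 1-1 and 1-3, and COL6A3 does not.

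COL4A1 and COL4A2, which assemble into the most widespread type IV network, are transcribed in opposite directions from the shared start region printed above. COL4A1 measured 75.6, 69.3 and 68.1 CPM with the combination, 52.2, 44.7 and 70.5 CPM with p38i and 53.7, 67.4 and 67.7 CPM with EZH2i, against 37.5, 42.9 and 46.9 CPM in control. Its combination and EZH2i libraries lay above all controls, and the log2 fold change was 0.74 with the combination (SE 0.185, edgeR adjusted p = 0.165), 0.39 with p38i (SE 0.186, 0.279) and 0.56 with EZH2i (SE 0.187, 0.193).

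COL4A2 measured 80.6, 53.5 and 73.1 CPM with the combination, 80.4, 52.7 and 75.4 CPM with p38i and 80.9, 76.3 and 73.3 CPM with EZH2i, against 69.5, 67.2 and 53.6 CPM in control. The combination and p38i libraries spanned the range of the controls, and the 3 EZH2i libraries lay above it. Its SE of 0.196 to 0.197 left room for log2 fold changes of 0.12, 0.13 and 0.28 in combination, p38i and EZH2i tumours, none past the threshold (edgeR adjusted p from 0.527 to 0.774). COL4A3 and COL4A4, the partners of COL4A5 in the glomerular network, had 5 to 13 and 3 to 17 counts per library. Their means were 2.39 ± 0.227 and 2.74 ± 1.31 CPM with the combination, 2.07 ± 0.845 and 2.67 ± 1.6 with p38i, 3.19 ± 1.05 and 2.8 ± 1.07 with EZH2i, and 3.49 ± 1.67 and 2.56 ± 1.04 CPM in control (mean ± SD, n = 3 each), and the groups overlapped.

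**Figure D3:**
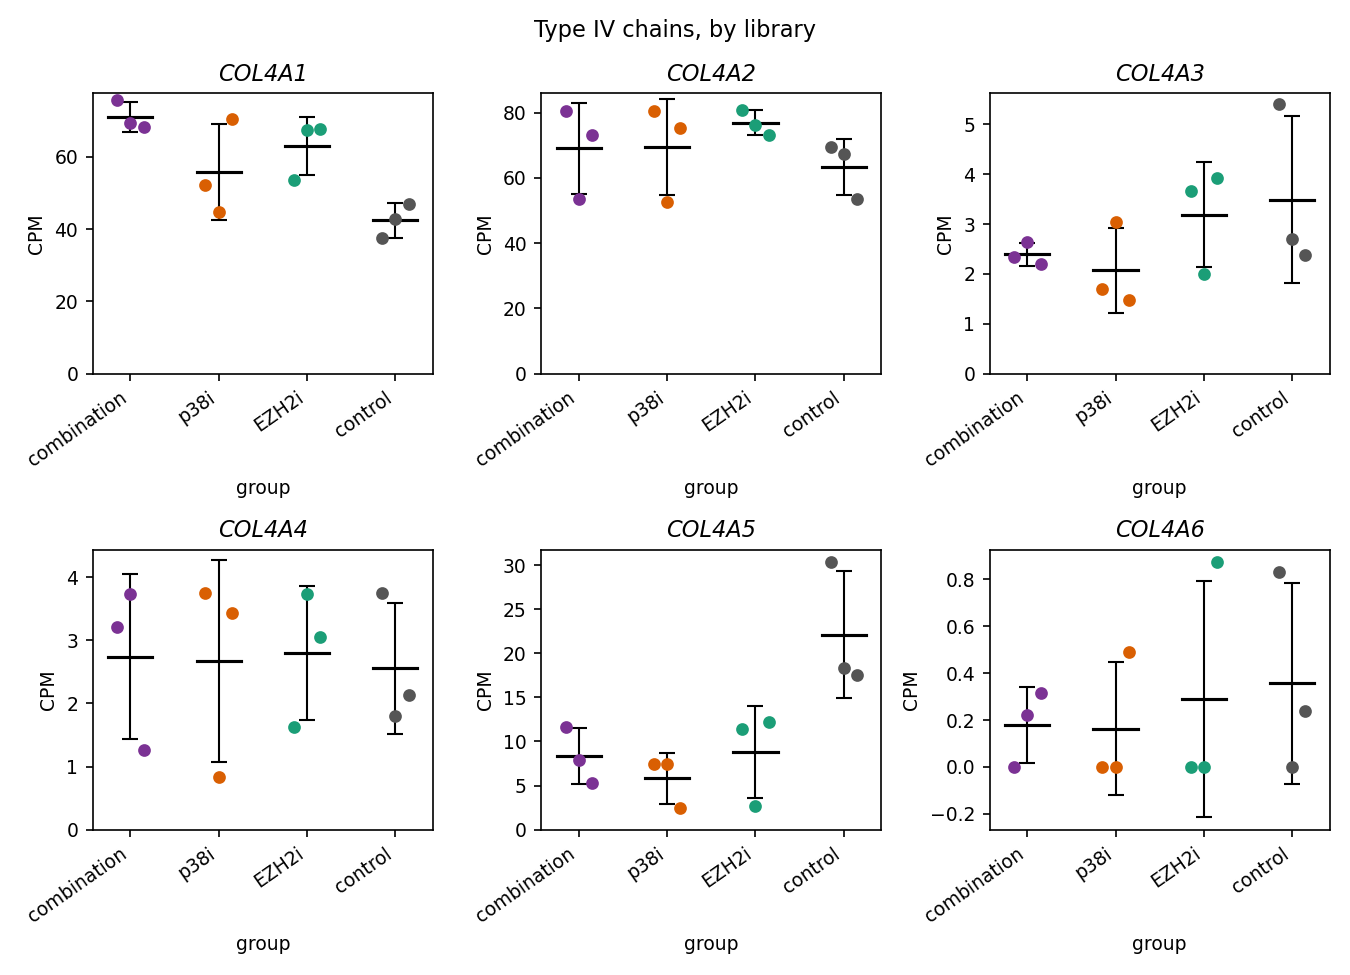
CPM (y axis, scaled per chain) of the 6 type IV chains in each library (points) by group, with the mean and SD of 3 libraries (bars). COL4A1 runs from 37.5 to 46.9 CPM in control and from 68.1 to 75.6 CPM with the combination, COL4A5 runs the other way, and COL4A6 stays near 0.

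Type VI chains form beaded filaments at the border of cells and basement membranes, and the common filament is built from COL6A1, COL6A2 and COL6A3 together. Their log2 fold changes differed in sign, but none passed the test, and the chains were not tested against each other. COL6A1 measured 585, 334 and 262 CPM with the combination, 241, 468 and 237 CPM with p38i and 542, 294 and 255 CPM with EZH2i, against 1079, 902 and 453 CPM in control. COL6A2 measured 37.5, 24.2 and 20.4 CPM with the combination, 21.8, 28.4 and 21.3 CPM with p38i and 54.9, 13.4 and 28.8 CPM with EZH2i, against 113, 76.9 and 35.3 CPM in control. In both genes controls 1-1 and 1-3 were above all other libraries, and control 2-1 lay within or near the treated ones.

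The log2 fold changes of COL6A1 were -1.04 with the combination (SE 0.421, edgeR adjusted p = 0.269), -1.36 with p38i (SE 0.425, 0.119) and -1.16 with EZH2i (SE 0.423, 0.247). Those of COL6A2 were -1.44 (SE 0.475, 0.226), -1.64 (SE 0.481, 0.103) and -1.22 (SE 0.478, 0.27). With p38i, COL6A1 passed without control 2-1 (adjusted p = 0.0406), and COL6A2 without control 2-1 (0.026), without EZH2i 5-4 (0.0499) and with DESeq2 (0.00846). Without controls 1-1 and 1-3 the values were nearer 0, at -0.21, -0.54 and -0.35 for COL6A1 and -0.38, -0.58 and -0.18 for COL6A2 with the combination, p38i and EZH2i. COL6A3, by contrast, measured 72.7, 82.1 and 91.6 CPM with the combination, 66.1, 68.4 and 108 CPM with p38i and 63.8, 66.4 and 81.2 CPM with EZH2i, against 53.3, 50.4 and 85.1 CPM in control. Here the groups overlapped, and the log2 fold changes were 0.38 (SE 0.229), 0.36 (SE 0.229) and 0.15 (SE 0.232), none past the threshold (edgeR adjusted p from 0.417 to 0.805). COL6A6, which can replace COL6A3, stayed at 1.81 ± 1.43 CPM with the combination, 2.7 ± 1.46 with p38i and 1.97 ± 0.793 with EZH2i, against 2.58 ± 1.49 CPM in control.

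None of the 7 fibrillar chains tested passed in any comparison. COL1A1, a chain of collagen I, the main fibre of skin, bone and tumour stroma, measured 503, 291 and 607 CPM with the combination, 158, 403 and 390 CPM with p38i and 387, 617 and 447 CPM with EZH2i, against 549, 322 and 210 CPM in control. COL3A1, the chain of collagen III of pliable tissue, measured 207, 123 and 340 CPM with the combination, 59.3, 370 and 289 CPM with p38i and 142, 280 and 236 CPM with EZH2i, against 197, 125 and 142 CPM in control. All groups overlapped in both genes, and p38i 3-3 was the lowest of the 12 libraries in each. Log2 fold changes of COL1A1 were 0.38, -0.18 and 0.43 for combination, p38i and EZH2i tumours, with SE of 0.412 each. Those of COL3A1 were 0.53, 0.63 and 0.51, with SE of 0.58 to 0.581. The SD of log2 CPM within groups, 0.61 for COL1A1 and 0.857 for COL3A1, was larger than these differences. EdgeR adjusted p ran from 0.611 to 0.868 for these fold changes.

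COL1A2, the partner chain of COL1A1, measured 108, 96.0 and 138 CPM with the combination, 56.2, 82.5 and 122 CPM with p38i and 79.3, 65.1 and 112 CPM with EZH2i, against 129, 69.7 and 81.3 CPM in control. COL5A1, a chain of collagen V, which starts fibrils of collagen I, measured 301, 158 and 157 CPM with the combination, 153, 142 and 125 CPM with p38i and 243, 183 and 127 CPM with EZH2i, against 405, 216 and 115 CPM in control. All groups overlapped in COL1A2. In COL5A1 the controls covered the range of every treated group, and the combination libraries lay above the p38i libraries, with p38i at a log2 fold change of -0.8 (SE 0.404, edgeR adjusted p = 0.317).

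COL5A2, the partner of COL5A1 in collagen V, measured 42.2, 36.3 and 51.5 CPM with the combination, 14.3, 44.2 and 62.4 CPM with p38i and 11.0, 26.6 and 41.0 CPM with EZH2i, against 12.1, 11.7 and 28.4 CPM in control. The combination libraries lay above all controls, p38i 3-3 and EZH2i 5-4 lay among the controls, and EZH2i 5-3 lay below them. The log2 fold change was 1.28 with the combination (SE 0.542, edgeR adjusted p = 0.282) and 0.59 without controls 1-1 and 1-3, and the value with p38i, 1.19 (SE 0.541, 0.27), was -0.29 when only p38i 3-3 was kept. COL11A1, a chain of collagen XI of cartilage fibrils, was at 5.42 ± 2.42 CPM with the combination, 6.09 ± 1.15 with p38i and 6.36 ± 1.57 with EZH2i, against 3.67 ± 1.13 CPM in control. COL27A1 had means of 1.47 to 2.64 CPM in the treated groups, against 3.12 ± 1.14 CPM in control. The summed level of all 11 fibrillar chains was 1063 ± 310 CPM with the combination, 835 ± 332 with p38i and 1012 ± 153 with EZH2i, against 882 ± 378 CPM in control (mean ± SD, n = 3 each), with overlapping groups.

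**Figure D4:**
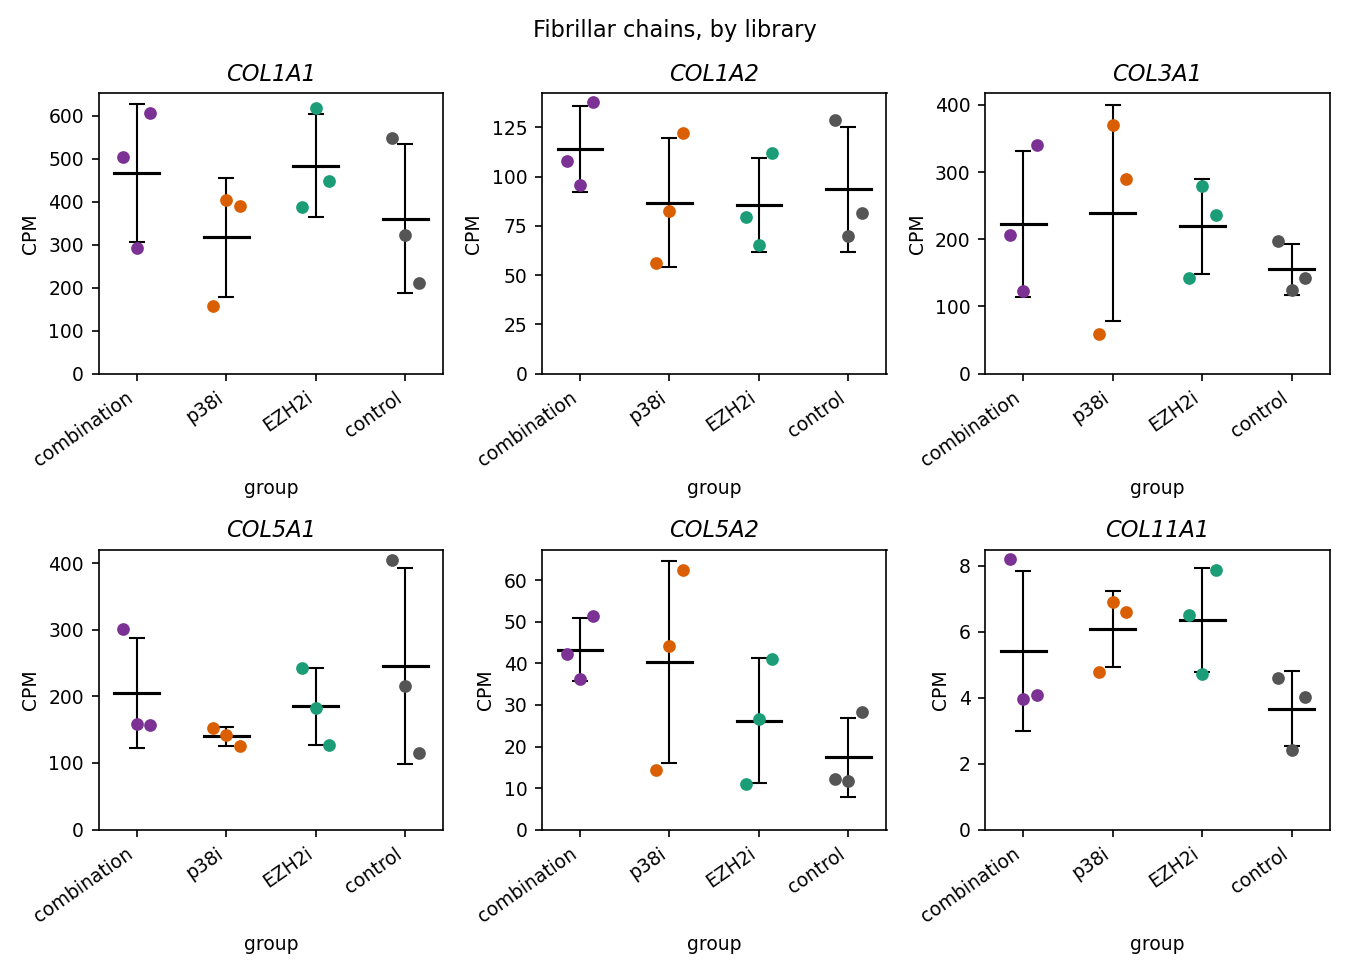
CPM (y axis, from 0) of 6 fibrillar chains in each library (points) by group, with the mean and SD of 3 libraries (bars). COL1A1 and COL3A1 are lowest in p38i 3-3, at 158 and 59.3 CPM, and only COL5A2 with the combination and COL11A1 with p38i and EZH2i have all treated libraries above all controls.

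Chains that decorate fibrils (the FACIT class) had 8 of 10 members tested. COL12A1, a chain found on fibrils of tendon and tumour stroma, measured 68.6, 75.3 and 99.5 CPM with the combination, 26.9, 62.6 and 69.0 CPM with p38i and 32.9, 92.7 and 63.3 CPM with EZH2i, against 37.5, 39.6 and 45.5 CPM in control. The combination libraries lay above all controls (log2 0.98, SE 0.356, edgeR adjusted p = 0.239), while p38i 3-3 and EZH2i 5-3 were the lowest of the 12. COL19A1 ran from 2.94 CPM in column 6 to 17.1 CPM in column 5, and LMBRD1 overlaps it on the other strand at 79 to 162 CPM. The remaining FACIT chains, COL9A1, COL14A1, COL16A1, COL21A1 and COL22A1, had group means of 1.53 to 5.16 CPM, and none passed in any comparison.

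Transmembrane chains are shed from the cell surface and take part in adhesion. COL13A1, found at cell-matrix contacts, measured 280, 347 and 328 CPM with the combination, 266, 319 and 252 CPM with p38i and 315, 353 and 289 CPM with EZH2i, against 166, 391 and 368 CPM in control. The treated libraries all lay within the range of the controls, whose lowest was control 1-1, and log2 fold changes were 0.04, -0.15 and 0.05 with SE of 0.243. COL17A1, the collagen of hemidesmosomes, which anchor epithelial cells, measured 10.3, 6.82 and 3.45 CPM with the combination, 11.9, 4.69 and 7.1 CPM with p38i and 5.69, 1.74 and 5.67 CPM with EZH2i, against 37.0, 10.8 and 11.6 CPM in control. Combination and EZH2i libraries lay below all controls, and control 1-1 was far above the rest. Control 1-1 also had the highest CDH1 (55.4 CPM). Combination 8-1, combination 9-1 and p38i 3-3, with CDH1 at 42.2, 40.7 and 33.4 CPM, had COL17A1 at only 10.3, 6.82 and 11.9 CPM.

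The log2 fold change of COL17A1 was -1.49 with the combination (SE 0.552, edgeR adjusted p = 0.241), -1.31 with p38i (SE 0.549, 0.224) and -2.22 with EZH2i (SE 0.603, 0.13). Without control 1-1 these values were -0.7, -0.51 and -1.42, and DESeq2 called the EZH2i value (adjusted p = 0.0193), while the part of epithelial genes in it was not tested. COL23A1 was at 8, 27 and 14 counts with the combination, 2, 9 and 0 with p38i and 9, 7 and 10 with EZH2i, against 1, 3 and 2 counts in control. All combination and EZH2i libraries lay above the controls, at a log2 fold change of 2.75 (SE 0.814, adjusted p = 0.192) and 2.31 (SE 0.86, 0.238), from counts this low.

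COL8A1, a chain of the network collagen of vessels and the cornea, measured 165, 104 and 85.7 CPM with the combination, 76.0, 94.9 and 146 CPM with p38i and 100, 115 and 111 CPM with EZH2i, against 142, 79.3 and 68.3 CPM in control. COL7A1, the chain of the fibrils that anchor the skin's basement membrane, measured 79.4, 28.8 and 35.8 CPM with the combination, 40.2, 37.0 and 38.7 CPM with p38i and 59.0, 46.2 and 44.1 CPM with EZH2i, against 72.4, 33.6 and 28.4 CPM in control. Control 1-1 and combination 8-1 were the highest libraries of COL7A1 and among the 3 highest of COL8A1. All treated groups overlapped the controls in both, and in COL7A1 the p38i libraries lay below the EZH2i libraries.

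**Figure D5:**
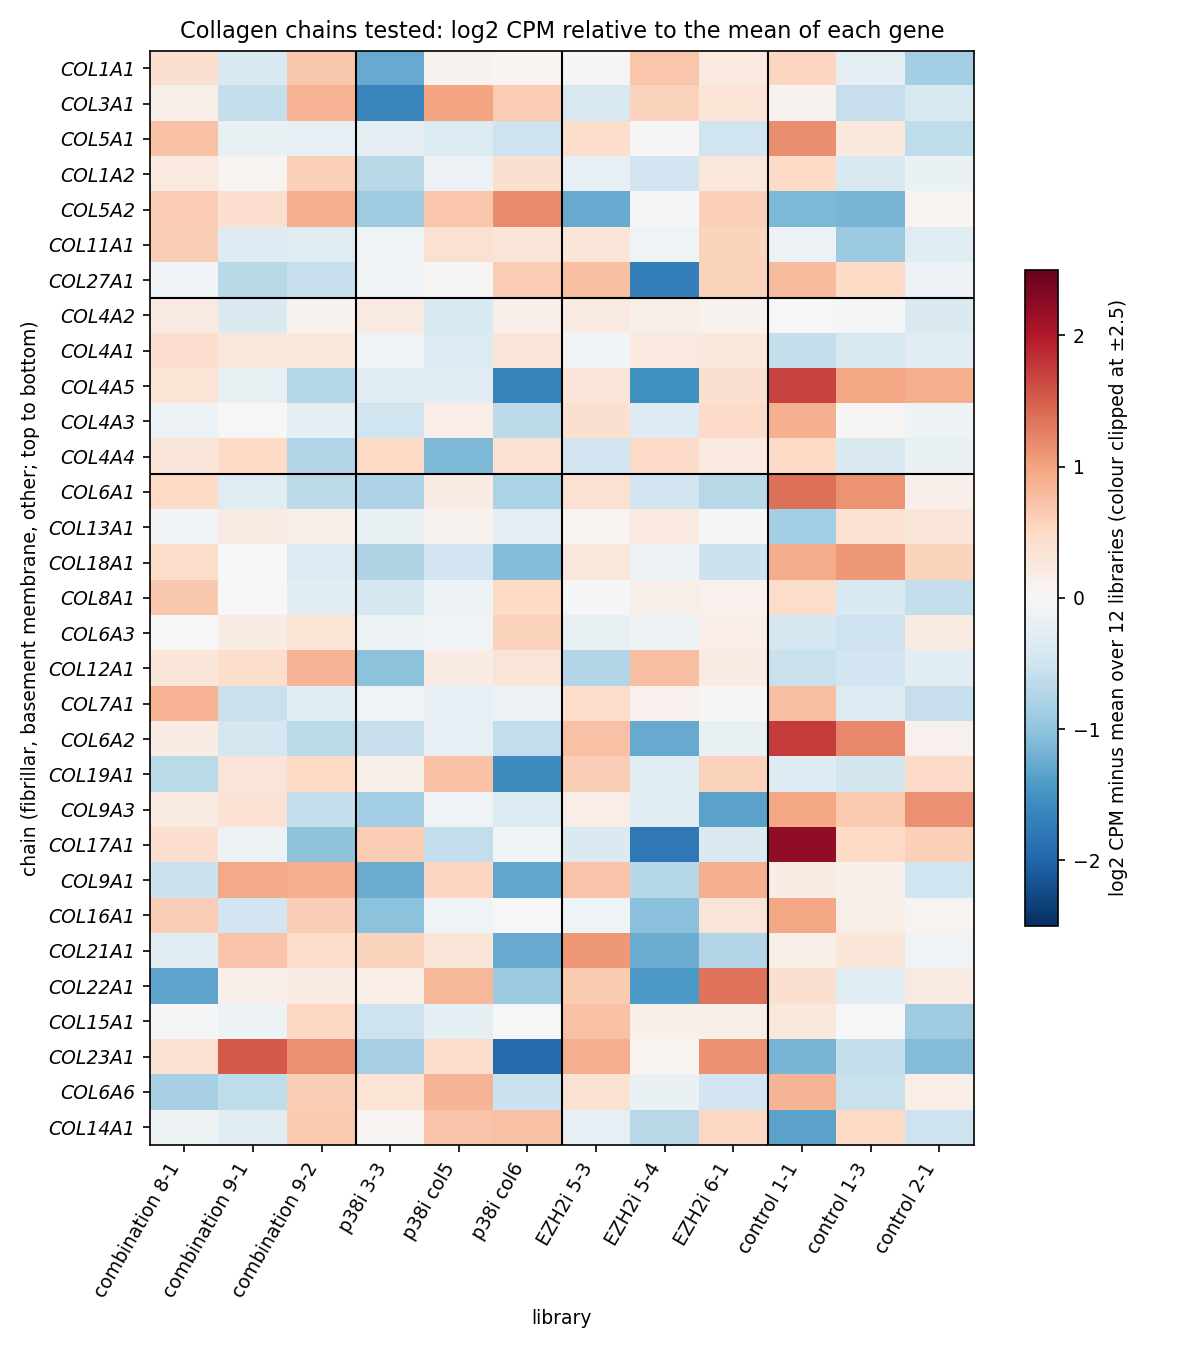
Log2 CPM of each tested chain (rows) in each library (columns, by group), as the difference from the gene's mean over the 12 libraries, red above and blue below, with colour clipped at 2.5. The chains do not form a single block. COL18A1, COL6A1, COL6A2, COL4A5, COL9A3, COL16A1 and COL17A1 are above their means in all 3 controls. Control 1-1 holds the highest value of 9 of the 31 chains, and p38i column 6 holds the lowest value of 8.

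The combination against each single agent asks what the second compound adds. None of the 31 chains passed against p38i or against EZH2i, where 0% of all genes passed in both comparisons. At an unadjusted p under 0.05 there were 2 chains against p38i (6.45%, against 7.81% of all genes) and 0 against EZH2i (3.12% of all genes), and DESeq2 and limma-voom called none in either. Groups did not overlap for 2 chains that were higher than with p38i, COL18A1 and COL5A1, and none that were lower, where 6.77% and 8.18% of all genes did not. Against EZH2i this held for 1 higher chain, COL4A1, and no lower one, where 3.34% and 3.77% of all genes did not overlap. COL18A1 was higher with the combination than with p38i in every library, with a log2 fold change of 0.83 (SE 0.244, edgeR adjusted p = 0.575), and the value for COL23A1 was 2 (SE 0.737, 0.582). The interaction asks, on the log2 scale, whether the change with the combination differs from the 2 single-agent changes added up. It called 0 of the 31 chains, where 0.024% of all genes passed (0.016% with a positive value). At an unadjusted p under 0.05 there were 5 (16.1%, against 13.1% of all genes), limma-voom called 0 and DESeq2 called COL18A1. For COL18A1 the interaction was 1.79 (SE 0.344, edgeR adjusted p = 0.071), which places the combination above the level that the sum of both single changes would give. It passed without EZH2i 5-3, with an adjusted p of 0.0374, and ran from 1.51 to 2 over all alternatives. COL9A3 (1.82, edgeR adjusted p = 0.155), COL4A5 (1.92, 0.276), COL17A1 (2.04, 0.316) and COL6A1 (1.48, 0.319) had interactions of the same sign that did not pass. The interaction adds the control level, so the high controls of these chains raise it in each. Over the alternatives it ran from 0.68 to 1.86 for COL6A1 and from 1.23 to 2.43 for COL17A1. Of the 31 chains, 15 had a positive and 16 a negative interaction.

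Collagen chains varied more between libraries of a group than most genes did. The median SD of log2 CPM within groups was 0.602 for the 31 chains, against 0.307 for all genes tested. Among genes with a mean of at least 20 CPM it was 0.533 for 15 chains, against 0.241 for 7105 genes.

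The 13 chains below the filter were COL2A1, COL5A3, COL11A2 and COL24A1 of the fibrillar type, COL4A6 of type IV, and COL6A5, COL8A2, COL9A2, COL10A1, COL20A1, COL25A1, COL26A1 and COL28A1 of the others. Their counts per library ran from 0 to 13. COL24A1 had 2 to 13 counts, COL9A2, a partner of COL9A3, 1 to 11, and COL10A1, the collagen of growth plate cartilage, 0 to 9. COL2A1, the chain of cartilage collagen II, had 0 to 2. COL26A1 had 0 of 40662820 counts, which allows up to 0.0738 CPM over all libraries.

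Genes that modify, fold, export, process, cross-link or bind collagen, or that share its matrix, were taken from 7 lists of 81 genes, of which 60 could be tested. With p38i 2 of the 60 rose and 2 fell, where 0.655% of all genes rose and 1.11% fell, and the median log2 fold change was -0.06, against 0 for all genes. The glycosylation list gave COLGALT1, which adds galactose to the hydroxylysine of collagen (153, 178 and 128 CPM with p38i, against 94.5, 84.1 and 86.5 CPM in control; log2 0.79, SE 0.186, edgeR adjusted p = 0.0461). LOXL2, one of the lysyl oxidases that cross-link collagen, measured 252, 223 and 225 CPM with p38i, against 109, 120 and 134 CPM in control (log2 0.94, SE 0.154, adjusted p = 0.0164). All p38i, EZH2i and combination libraries lay above all controls in both. Log2 fold changes with EZH2i and the combination were 0.64 and 0.37 for COLGALT1, and 0.67 and 0.72 for LOXL2. None of these passed (edgeR adjusted p from 0.0892 to 0.338). The p38i call held in 10 of 22 alternatives for COLGALT1 and in 15 of 22 for LOXL2.

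The collagen receptor genes that fell with p38i were ITGA1 and ITGA10, the alpha subunits of collagen-binding integrins. ITGA1 measured 24.2, 38.1 and 23 CPM with p38i, against 155, 86.5 and 64 CPM in control (log2 -1.83, SE 0.383, edgeR adjusted p = 0.0379). The fall was of like size with EZH2i (-1.87, adjusted p = 0.0742) and the combination (-1.84, 0.133), which did not pass. In each treated group all ITGA1 libraries lay below all controls. ITGA10 fell with p38i (-1.87, adjusted p = 0.000689), EZH2i (-1.66, 0.00224) and the combination (-1.49, 0.00974). ITGA2, the subunit that binds collagen I, was at -0.01 with p38i (SE 0.151, adjusted p = 0.988), and ITGA11 had at most 1.26 CPM. The 4 genes called with p38i became 1 without control 1-1, control 1-3, p38i 3-3, column 5 or column 6, became 2 without combination 9-1 and 7 without control 2-1. ITGA10 was the only gene of the lists called with EZH2i and with the combination. Those counts became 3 with EZH2i without control 2-1, and with the combination 0 without control 1-1, control 1-3 or combination 9-2, 2 without EZH2i 5-4 and 5 without control 2-1.

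The prolyl and lysyl hydroxylases and the collagen chaperone did not pass with p38i. Log2 fold changes were 0.25 for P4HA1 (SE 0.303), 0.56 for PLOD2 (SE 0.252) and 0.28 for SERPINH1 (SE 0.226), with edgeR adjusted p from 0.254 to 0.707. None of the 11 tested genes of folding and export, the 6 of procollagen processing, the 3 fibril-associated proteoglycans or the 13 basement membrane partners passed with p38i, EZH2i or the combination.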

How the data were processed

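Gene counts of 12 tumour libraries, 3 per group, were used as the authors deposited them. The submitters' processing notes name the trimmer Trim Galore (0.5.0), the aligner STAR (2.6.0) and the build hg19. The counting program, its annotation, its use of strand and any removal of mouse reads are not given in the sources used here, and the labels name both a SMARTer mRNA kit and QuantSeq. Table columns were joined to samples by the column number in the labels, read as the header name.

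Genes were filtered with filterByExpr, scaled by TMM and tested with edgeR 4.0.16 (quasi-likelihood F test, robust, R 4.3.3), with 1 term per group over all libraries and Benjamini-Hochberg adjustment over 12514 genes at 0.05. CPM were computed from the deposited counts on TMM-scaled library sizes for display only. SE is the log2 fold change divided by the square root of F. Shares have 95% Wilson intervals. Alternatives used limma 3.58.1 (voom), DESeq2 1.42.0, other scalings and filters, and left-out libraries. The test was tested on simulated data with the same spread for every gene, and with changes only in genes of at least 5 CPM. That simulation does not cover chains with few counts or a wider spread. The members and gene lists were chosen with earlier results of these data known. Named chains were those past the threshold, the 3 with the highest mean in each type, and those apart from the controls in every treated group. Others are given by level. Levels were not compared between genes, since counts are not per length.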

Additional observations from a re-analysis of the deposited data

Results flagged for a closer look

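The interaction of p38i and EZH2i for ITGA10, an integrin subunit that binds collagen, was 2.04 on the log2 scale (edgeR adjusted p = 0.00815, called in 19 of 21 alternatives). The effect of p38i thus differed between tumours with and without EZH2i by the test of that difference. ITGA10 averaged 73.1 CPM with p38i, 84.6 CPM with EZH2i and 94.5 CPM with the combination, against 267 CPM in control. All treated groups were thus low, and the combination against EZH2i was at 0.17 (edgeR adjusted p = 0.991). The interaction was 1.87 without controls 1-1 and 1-3 and 1.89 without p38i columns 5 and 6.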

How the results depend on the processing

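COL18A1 was lower with p38i under all 22 alternatives (log2 -1.76 to -1.33) and was called in 17 of them. The number of chains called with p38i, 1 as reported, was 4 with DESeq2, 2 with no low-count filter and 3 with only the groups compared, and 0 without controls 1-1 and 1-3 together and 0 without p38i columns 5 and 6 together. With 1 library left out it ran from 0 to 4. With EZH2i, 0 as reported, it was 3 with DESeq2 and 1 with no low-count filter (COL18A1). With the combination, 0 as reported, it was 1 with DESeq2. For the interaction, 0 as reported, it was 1 with DESeq2, 1 with no low-count filter and from 0 to 1 with 1 library left out. Processing and receptor genes called with p38i, 4 as reported, were 8 with DESeq2, 1 without controls 1-1 and 1-3, 0 without p38i columns 5 and 6, and from 1 to 7 with 1 library left out. With EZH2i, 1 as reported, they were 4 with DESeq2, 0 without controls 1-1 and 1-3, and from 1 to 3 with 1 library left out. With the combination, 1 as reported, they were 4 with DESeq2, 0 without controls 1-1 and 1-3, and from 0 to 5 with 1 library left out. COL5A2 with p38i turned from 1.19 to -0.29 without p38i columns 5 and 6. Both settings that leave out a pair of libraries were chosen after seeing the data, and they leave 1 library in a group, which is assumed to vary like the other groups. They also leave fewer samples. The cause of the other shifts was not tested. No paired analysis was possible because the groups share no replicate numbers. Chains of a few counts per library limit what could be detected. The share of all genes called was not computed for the alternatives. Call counts under them therefore cannot be set against a background.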

Other observations

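Chromosome 21 carries COL18A1, COL6A1 and COL6A2, and all 3 had negative log2 fold changes with the combination, p38i and EZH2i. So did COL4A3, COL4A5, COL5A1, COL9A3, COL16A1, COL17A1 and COL27A1, which lie on other chromosomes. Only COL18A1 with p38i passed the test, and any part of the chromosome in these values was not tested. PPIB, a chaperone of the collagen folding machinery that most cells use, was at 0 to 1.47 CPM in these libraries, and SLC19A1, the folate carrier next to COL18A1, had 0 to 3 counts.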
